A study of Mus musculus with 6 samples.

Results

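The surface ectoderm keratins and epithelial regulators are 10 genes chosen by name: the keratins Krt5, Krt8, Krt14, Krt18 and Krt19, the adhesion molecule Epcam, and the transcription factors Trp63, Grhl2, Grhl3 and Tfap2a. Probes were taken by the gene name in the array files, where Tfap2a is written Tcfap2a. A probe was found for 9 of the 10 genes, 15 probes in all, and all 9 genes passed the filter on dim probes, among 19354 genes tested. Grhl3 is named only. Wild-type (WT) embryos were compared with Paraxis-/- embryos, which lack the basic helix-loop-helix factor encoded by Tcf15, without which mouse somites are known not to become epithelial. Both genotypes were C57BL/6J mice at embryonic day 9.5, and the tissue was the front of the presomitic mesoderm with the 4 newest somites. Each pool held tissue of 5 embryos, and 3 WT pools were set against 3 Paraxis-/- pools on 6 two-colour Agilent arrays. Each pair of pools was hybridised on 2 arrays with the dyes exchanged. Pair A (WT pool A and Paraxis-/- pool A) was on slide 1. Pair B (WT pool B and Paraxis-/- pool C) and pair C (WT pool C and Paraxis-/- pool B) were on slide 2.

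Keratins are the intermediate filament proteins of epithelia, built as pairs of a type II and a type I chain. Krt8 with Krt18 or Krt19 makes the filaments of simple, single-layered epithelia, and Krt5 with Krt14 marks the basal layer of stratified epidermis. The embryonic surface ectoderm begins as a simple epithelium, and p63, the product of Trp63, directs its change to stratified epidermis. Grainyhead-like factors (Grhl2, Grhl3) and AP-2 alpha (Tfap2a) are epithelial regulators that are also needed for closure of the neural tube, and Tfap2a is active in neural crest as well. Epcam is a cell adhesion protein of the epithelial surface. The simple-epithelium keratins and Epcam are made in the gut endoderm too, and the simple keratins also in yolk sac and trophoblast.

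In pair A, Krt8, Krt18 and Epcam were 2.22-, 2.06- and 1.89-fold higher in the Paraxis-/- pool than in the WT pool. Grhl2 was 1.37-fold higher by its brightest probe, which a second, dimmer kept probe did not show. In pairs B and C all 4 of these genes lay near a ratio of 1. Over the 3 pairs none of the 9 genes differed between the genotypes at an adjusted p of 0.05 (limma), and none at an unadjusted p of 0.05. The background was 4 of 19354 genes (0.0207%) at the adjusted and 981 genes (5.07%) at the unadjusted threshold. The basal keratins Krt5 and Krt14, and Trp63 and Tfap2a, differed by at most 0.32 on the log2 scale in any pair.

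The probes are shown because the result turns on a few 60-base oligos. Krt8 and Krt18, which had the highest ratios in pair A, are neighbours on chromosome 15, with 2 long non-coding RNA genes listed between them in RefSeq, and their printed probes lie 34.9 kb apart on opposite strands. Capitals mark the longest run of bases these probes share, 11 bases. No other pair among the 5 printed probes shared a run of more than 8 bases. All are read 5′ to 3′ from the array annotation, with mm9 coordinates from the array files. The position of each probe within its gene (exon, untranslated region) was not used here.
Krt8 probe A_51_P242399, chr15:101827346-101827405, minus strand: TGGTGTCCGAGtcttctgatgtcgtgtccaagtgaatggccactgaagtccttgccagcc
Krt18 probe A_51_P324814, chr15:101862341-101862400, plus strand: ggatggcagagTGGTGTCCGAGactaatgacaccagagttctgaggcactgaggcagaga
Krt19 probe A_51_P356642, chr11:100002392-100002451, minus strand: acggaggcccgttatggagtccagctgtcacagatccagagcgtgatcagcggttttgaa
Krt14 probe A_51_P506417, chr11:100064683-100065288, minus strand: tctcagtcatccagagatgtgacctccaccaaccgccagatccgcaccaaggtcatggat
Epcam probe A_52_P447944, chr17:88048972-88049800, plus strand: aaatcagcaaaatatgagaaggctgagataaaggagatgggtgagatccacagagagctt
The Krt14 and Epcam probes cover 606 and 829 bases of the genome, more than their own 60 bases. The brighter Krt8 probe, A_51_P242400, which stands for the gene in the values, is not printed, and its longest run shared with the Krt18 probe is 5 bases.

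The label was checked against the tissue first. Tcf15, the gene disrupted in the Paraxis-/- embryos, had log2 ratios of -5.23, -5.48 and -5.52 in pairs A, B and C (adjusted p = 0.00054, limma). Of 16 markers of presomitic mesoderm and somite, 15 were tested and 1, Ripply2, had no matching probe. The 9 surface ectoderm genes were also well above background in all 6 measurements of both genotypes. In bulk tissue, more cells of a type and more RNA per cell cannot be told apart. Between 27080 and 31795 of 43379 gene spots per channel were well above background, and no spot of these 9 genes was saturated. The log2 ratios of all genes were wider in pair A (SD 0.31) than in pair B (0.18) and pair C (0.25).

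Among the keratins of simple epithelia, Krt8, a type II chain, had normalised log2 signals of 12.34, 12.81 and 12.82 in WT pools A, B and C. The Paraxis-/- pools of pairs A, B and C stood at 13.49, 12.76 and 12.88. The WT pool of pair A was the lowest of the 6 and its Paraxis-/- partner the highest, while the other 4 pools lay between 12.76 and 12.88. The log2 ratios of Paraxis-/- over WT were therefore 1.15, -0.05 and 0.06, and the mean was 0.39 (SE 0.25, adjusted p = 0.953, limma). In pair A both dye orientations gave a high ratio, 1.35 with Paraxis-/- in Cy3 and 0.95 with it in Cy5. The second Krt8 probe, the one printed above, gave 1.22, -0.09 and 0.04. Levels of pair A beside those of the other pools compare slides, and are less sure than ratios within a pair.

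Krt18, the type I partner of Krt8, had log2 signals of 13.24, 14.02 and 14.17 in the WT pools. In the Paraxis-/- pools it stood at 14.29, 14.11 and 14.30. One WT pool, that of pair A, was low, and the other 5 pools lay close together, again a comparison across slides. The log2 ratios were 1.04, 0.08 and 0.13, with a mean of 0.42 (SE 0.21, adjusted p = 0.950, limma). Krt18 was one of 2 of the 9 genes, with Krt5, whose ratio was above 0 in all 3 pairs; 13.5% of all genes were.

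Krt19, the other type I keratin of simple epithelia, had signals of 11.23, 11.03 and 11.23 in WT and 11.70, 11.25 and 10.96 in Paraxis-/-. The genotypes overlapped, and the 3 pairs ran in different directions, with ratios of 0.47, 0.22 and -0.27 (mean 0.14, SE 0.15, adjusted p = 0.963, limma). In pair A the dye orientations differed widely, with 0.80 on one array and 0.15 on the other. Without pair A the mean was -0.03.

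Epcam gave signals of 9.25, 9.47 and 9.49 in the WT pools and 10.17, 9.35 and 9.64 in the Paraxis-/- pools. As for Krt8, the WT pool of pair A was the lowest and its Paraxis-/- partner the highest, and the Paraxis-/- pool of pair B lay below 2 of the 3 WT pools. The ratios were 0.92, -0.12 and 0.15 (mean 0.32, SE 0.21, adjusted p = 0.953, limma), and both arrays of pair A were high, at 1.07 and 0.77. The mean fell to 0.01 when pair A was left out, against 0.01 for Krt8 and 0.11 for Krt18.

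**Figure D1:**
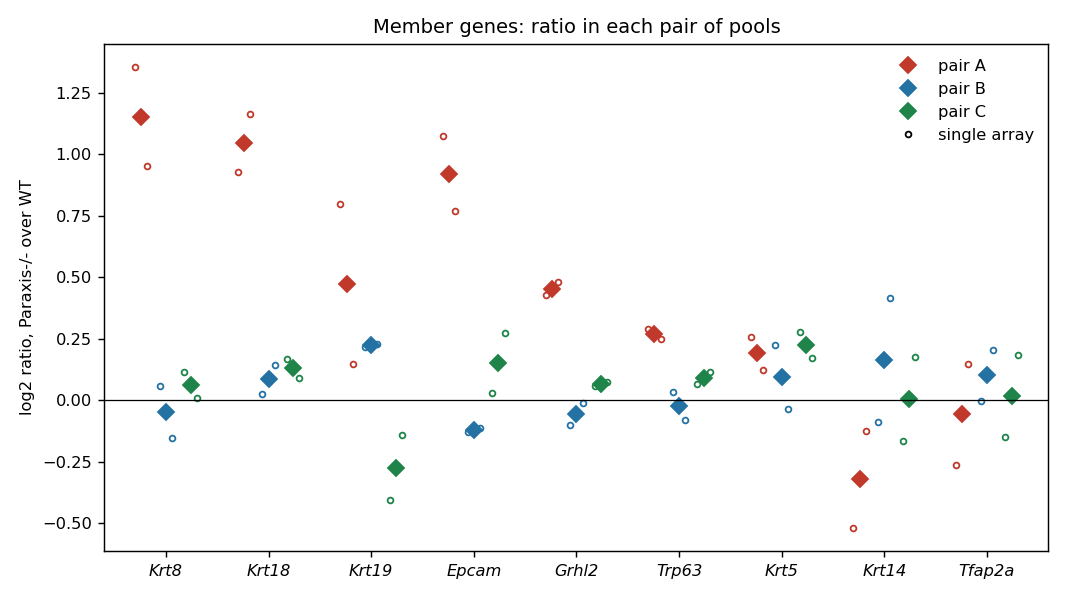
Log2 ratio of Paraxis-/- over WT (vertical axis) for the 9 genes (horizontal axis). Diamonds are pairs A, B and C, each the mean of its dye-swapped arrays, and open circles are the single arrays; Krt8, Krt18 and Epcam stand at 1.15, 1.04 and 0.92 in pair A and between -0.12 and 0.15 in pairs B and C.

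Grhl2, the grainyhead-like factor that acts on epithelial junction genes, had signals of 9.13, 9.496 and 9.53 in WT and 9.58, 9.44 and 9.60 in Paraxis-/-. As for Krt18, the WT pool of pair A was the low one. The ratios were 0.45, -0.06 and 0.07 (mean 0.15, SE 0.12, adjusted p = 0.953, limma). A second Grhl2 probe gave -0.08, -0.10 and 0.00, without the high value in pair A. Its mean log2 brightness was 6.70, beside 9.46 for the first probe and 6.38 for the dimmest. The second probe was kept, being well above background in 5 of 6 WT and 6 of 6 Paraxis-/- measurements. The kept Grhl2 probes thus disagreed in pair A, and with kept probes averaged the mean log2 ratio was 0.05. Whether low brightness drew the ratios of the second probe toward 0 was not tested. The dimmest Grhl2 probe was well above background in 0 of 6 measurements of either genotype.

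Trp63, the master regulator of stratified epithelia, had signals of 8.30, 9.04 and 9.05 in WT and 8.57, 9.01 and 9.14 in Paraxis-/-. Both pools of pair A were below the other 4 pools, and the difference within each pair was small, at 0.27, -0.02 and 0.09 (mean 0.11, SE 0.08, adjusted p = 0.953, limma). Pools on different slides differ in scanning as well as in tissue, so levels across slides are less sure than ratios within a pair. The other Trp63 probes, 2 in number, were too dim to keep.

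Krt5, the type II chain of basal epidermis, gave the smallest p of the 9 genes. Its signals were 9.35, 9.55 and 9.41 in WT and 9.54, 9.65 and 9.64 in Paraxis-/-. The highest WT pool lay just above the lowest Paraxis-/- pool, so the genotypes overlapped, but within each pair Paraxis-/- was higher, by 0.19, 0.10 and 0.22. The mean of 0.17 (SE 0.07, a 1.13-fold difference) had an unadjusted limma p of 0.057 and an adjusted p of 0.950. In pair B the dye orientations had opposite signs, 0.23 with Paraxis-/- in Cy3 and -0.03 with it in Cy5.

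Krt14, the type I partner of Krt5, gave 8.26, 7.94 and 8.07 in WT and 7.93, 8.11 and 8.08 in Paraxis-/-. It did not share the pattern of the simple keratins, with ratios of -0.32, 0.16 and 0.01 (mean -0.05, SE 0.11, adjusted p = 0.986, limma). In pairs B and C the dye orientations had opposite signs.

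Tfap2a, encoding AP-2 alpha, was the flattest of the 9 in its mean. It had signals of 9.56, 9.29 and 9.41 in WT and 9.498, 9.40 and 9.43 in Paraxis-/-, and ratios of -0.06, 0.10 and 0.02 (mean 0.02, SE 0.07, adjusted p = 0.991, limma). The dye orientations had opposite signs in all 3 pairs. A second Tfap2a probe was well above background in 2 of 6 WT and 3 of 6 Paraxis-/- measurements and was not kept. With 3 pairs an exact sign-flip permutation test of 1 gene cannot give a p below 0.25.

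**Figure D2:**
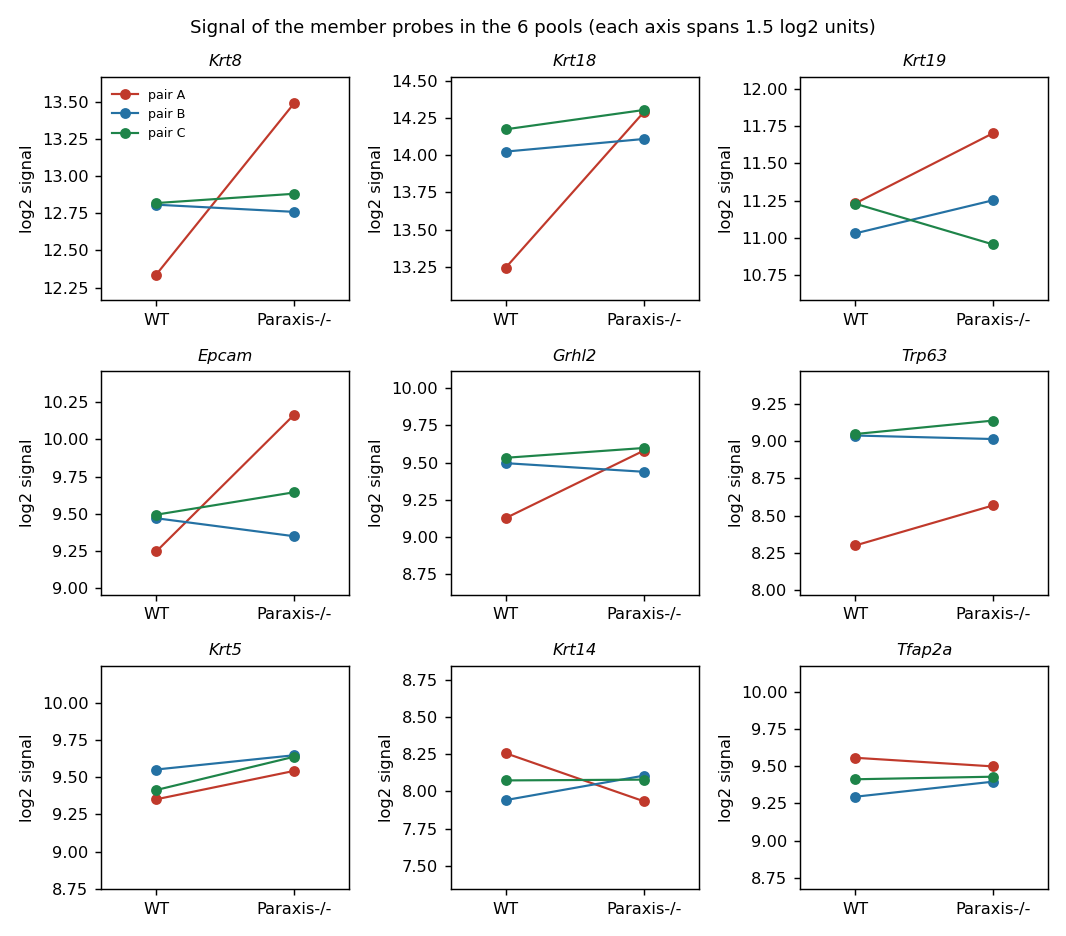
Normalised log2 signal (vertical axis, 1.5 log2 units in each panel) of the 9 genes in the 3 WT and 3 Paraxis-/- pools, with a line joining the pools of a pair. For Krt8, Krt18, Epcam and Grhl2 the WT pool of pair A is below the other 5 pools, and for Krt8 and Epcam its Paraxis-/- partner is above the other 5. Trp63 is low in both pools of pair A. Pair A was on another slide than pairs B and C.

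For all 9 genes together the median log2 ratio was 0.15, beside 0.00 over all genes tested, and 8 of 9 means were above 0, beside 9982 of 19354 genes. By pair the medians were 0.45, 0.08 and 0.07, and without pair A the median was 0.03. In no gene did all 3 Paraxis-/- levels lie above all 3 WT levels, which 3.1% of all genes did, or below them, which 2.88% did. In pair A, Krt8, Krt18 and Epcam were at least 1.5-fold higher in Paraxis-/- (3 of 9), beside 2.31% of all genes, and Krt8 and Krt18 at least 2-fold higher, beside 0.7%. Krt8 ranked 93, Krt18 115 and Epcam 161 among 19295 genes by their ratio in pair A, with Krt19 at 696 and Grhl2 at 755. In pairs B and C no gene of the 9 was 1.5-fold higher, beside 0.822% and 1.06% of all genes. None of the 9 was 1.5-fold lower in any pair, where the shares over all genes were 2.1%, 0.398% and 2.05% (A, B and C).

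Each pair was also tested against the spread between dye-swapped arrays, pooled over the 3 pairs of a gene, in a fit added after the ratios had been seen. This compares 2 pools of embryos and not the genotypes. In pair A, 4 of 9 genes were higher in the Paraxis-/- pool, beside 5.2% of all genes: Krt8 (adjusted p = 0.0013), Krt18 (0.0019), Epcam (0.0067) and Grhl2 (0.018, limma). None was lower, beside 4.95%. In pairs B and C none was higher or lower, beside 0.581% higher and 0.29% lower in pair B and 2.86% and 3.44% in pair C. The ratio in pair A exceeded the mean of pairs B and C for the same 4 genes, by 1.14 for Krt8 (adjusted p = 0.0039), 0.94 for Krt18 (0.0073), 0.90 for Epcam (0.017) and 0.45 for Grhl2 (0.039, limma). That difference was past the threshold in this direction for 3.92% of all genes and in the other for 4.33%. The counts describe genes looked at with the ratios known. Pair A is the only pair on slide 1, so the pair and the slide cannot be told apart.

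**Figure D3:**
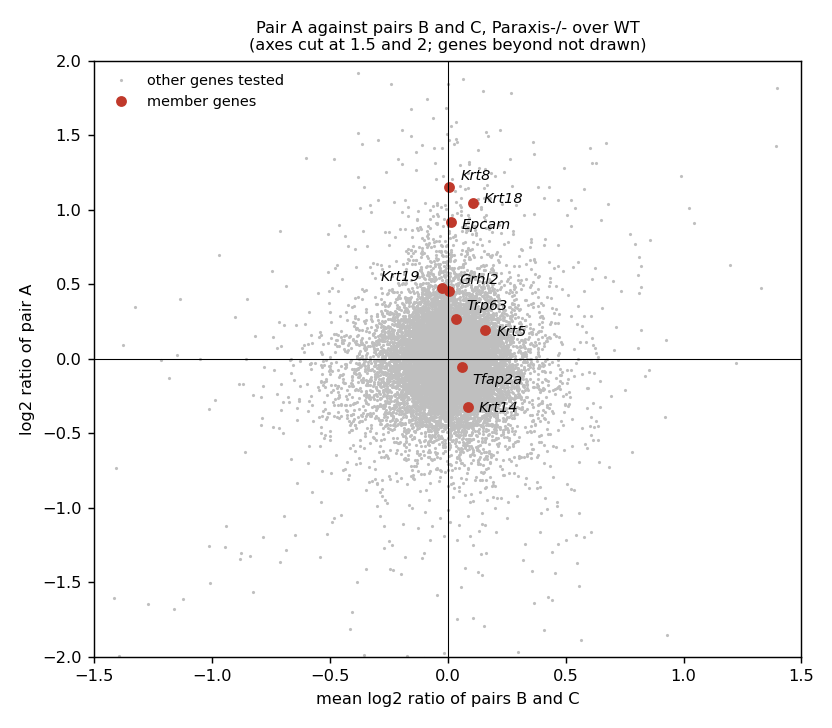
Log2 ratio of Paraxis-/- over WT in pair A (vertical axis) against the mean of pairs B and C (horizontal axis); grey points are the other genes tested, red points the 9 named genes. Krt8, Krt18 and Epcam stand between 0.92 and 1.15 on the vertical axis, at horizontal positions between 0.01 and 0.11.

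Genes related to the 9 by family were measured on the same arrays. Of 39 other keratin genes with a probe, 20 were bright enough to test. Their median ratio was -0.02 and 7 means were above 0; none passed the adjusted or the unadjusted threshold. By smallest p they were led by Krt79 (-0.20), Krt23 (0.18), Krt20 (0.16) and Krt15 (0.46), a keratin of basal epidermal cells. For Krt15 the pairs ran from 0.65 in A and 1.01 in B to -0.26 in C. In pair A 2 of the 20, Krt15 and Krt7, were higher by the dye-swap fit and none lower, beside the 5.2% and 4.95% above. Krt7, named here after its values were seen, gave 0.52, 0.18 and -0.15, and the WT pool of pair A was its lowest at 11.85. It was the 1 of 20 whose ratio in pair A exceeded the mean of pairs B and C, beside 3.92% of all genes.

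Of 11 relatives of the transcription factors and of Epcam, 10 were tested, with a median of -0.03. None passed the adjusted threshold, and 2 had an unadjusted p under 0.05, beside 5.07% of all genes. Tfap2c, which encodes AP-2 gamma, a factor of surface ectoderm and trophoblast, gave 0.79, 0.24 and 0.27 in pairs A, B and C (mean 0.43, SE 0.13, adjusted p = 0.933, limma). Trp53, the p53 gene, gave -0.31, -0.24 and -0.35 (mean -0.30, SE 0.07, adjusted p = 0.737, limma). Both kept 1 sign in all 3 pairs, unlike Tfap2a and Trp63. Tfap2e (-0.21) and Tfcp2l1 (0.21) were next by p.

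A list of 41 other genes of surface ectoderm and epithelia, among them cadherin, desmosome and basement membrane genes, had 40 tested members. The median was 0.13 and 28 means were above 0. None passed the adjusted threshold. The unadjusted one was passed by 2 of 40, both above 0, a share near the 5.07% of all genes. Msx2, a homeobox gene of ectoderm and its neighbours, gave 0.18, 0.33 and 0.44 (mean 0.32, SE 0.08, adjusted p = 0.818, limma). Wnt6, a ligand of the surface ectoderm known to act on somite epithelium, gave 0.31, 0.11 and 0.23 (mean 0.22, SE 0.07, adjusted p = 0.933, limma). Esrp2, an epithelial splicing regulator, had a mean of 0.17 and Dsg2, a desmosomal cadherin, 0.19. By pair the medians of the list were 0.30, -0.01 and 0.06, and without pair A the median was 0.04. In pair A 14 of 40 were higher by the dye-swap fit and 1 lower, beside the same 5.2% and 4.95%. Spint1, a protease inhibitor of epithelia named here after its values were seen, gave 1.07, -0.03 and 0.29.

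Markers of other tissues were counted in pair A by the same dye-swap fit, in which 5.2% of all genes were higher and 4.95% lower. The gut endoderm list (9 of 10 genes tested, Spink3 without a matching probe) had medians of 0.49, -0.01 and -0.03 in pairs A, B and C, and 5 of 9 were higher in pair A, beside 5.2% of all genes. Foxa2, a regulator of endoderm, notochord and floor plate, gave 0.49, 0.02 and 0.05. First by p were Pyy, with 0.66, 0.33 and 0.38, and Sox17, with 0.18, 0.33 and 0.37. Both were above 0 in every pair, and neither passed the adjusted threshold. The list's summed signal ran from 12.75 to 13.90 (log2) in the WT pools and from 13.51 to 14.39 in the Paraxis-/- pools, with the lowest WT and the highest Paraxis-/- value in pair A. Its largest terms were Foxa2 and Cdx2, and Cdx2 is in the trophoblast list too.

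The yolk sac and visceral endoderm list (11 of 12 tested, Ttr too dim) had medians of 0.58, 0.12 and 0.05, with 7 of 11 higher in pair A, beside the same 5.2%. All 11 means were above 0, and 4 of 11 passed the unadjusted threshold, beside 5.07% of all genes. The summed signal of the list was 10.94 to 12.08 in WT and 12.27 to 12.59 in Paraxis-/-. In every other list summed here the genotypes overlapped, and how often lists of other genes would separate was not computed. Afp, a large term of the sum in every pool but WT pool A, had ratios of 4.34, 1.58 and -0.20. Its signals overlapped between genotypes, at 6.44, 9.72 and 10.43 in WT and 10.79, 11.30 and 10.23 in Paraxis-/-. Rbp4, a retinol carrier of visceral endoderm, gave 1.42, 0.65 and 0.56. The trophoblast list (7 of 10 tested, Gcm1 and Tpbpa too dim, Prl2c2 without a matching probe) had medians of 0.26, 0.03 and -0.03. In pair A 3 of 7 were higher and 1 lower, beside 5.2% and 4.95% of all genes, and the summed signal was 11.51 to 13.07 in WT and 12.30 to 14.23 in Paraxis-/-. Prl3d1, a placental hormone, gave 3.61, 0.03 and 0.53, and Cdx2, also made in hindgut and tailbud, gave 3.11, -0.51 and -0.82. Prl3b1, another placental hormone, gave -0.60, 0.06 and -0.05, and in pair A the trophoblast factors Hand1 and Ascl2 stood at -0.05 and 0.04.

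In the notochord list (7 of 8 tested, Noto without a matching probe) 3 of 7 genes were higher in pair A, beside 5.2% of all genes. T (Brachyury), 1 of the 3, gave 1.44, -0.34 and 0.39. Shh, Chrd, Nog and Foxj1, at 0.12, -0.15, 0.25 and -0.05 in pair A, were not past the threshold. The summed signal was 13.68 to 14.16 in WT and 14.04 to 14.35 in Paraxis-/-. Neural crest genes ran the other way in pair A, with medians of -0.56, 0.24 and 0.29, and 7 of 9 lower and 1 higher, beside 4.95% and 5.2% of all genes. Sox10, a defining factor of neural crest, gave -1.82, 0.37 and 0.45. Ngfr, the 1 higher gene and the first of the list by p, gave 0.52, 0.64 and 0.76. The list's summed signal was 13.98 to 14.46 in WT and 14.02 to 14.43 in Paraxis-/-. In the neural tube list (9 of 10 tested, Sox3 without a matching probe) the medians were -0.29, 0.11 and 0.21, and 3 genes were lower in pair A, beside 4.95%. Primitive blood genes, all 10 tested, had medians of 0.50, 0.97 and -0.09. Of these 10, 5 were higher in pair A and 6 in pair B, beside 5.2% and 0.581% of all genes. Intermediate mesoderm (7 of 8 tested, Ret too dim) had medians of 0.05, 0.11 and 0.03, and lateral plate, all 8 tested, -0.07, 0.15 and 0.03. These medians hide genes that moved both ways in pair A, beside 5.2% higher and 4.95% lower of all genes. In intermediate mesoderm 3 of 7 were higher and 2 lower, and in lateral plate 3 of 8 were higher and 3 lower. The part of these tissues in the values of Krt8, Krt18, Epcam and Grhl2 was not tested.

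Somite markers are set beside the epithelial genes because pair A stood apart there too, with medians of 0.31, -0.39 and -0.27. By the dye-swap fit, 5 of 15 exceeded the mean of pairs B and C in pair A, beside 3.92% of all genes, and 0 lay below it, beside 4.33%. Among the 5, named here after their values were seen, Tbx6 gave 2.43, -0.59 and 0.22 and Dll3 gave 1.62, -0.19 and 0.06. Both stood further from 0 in pair A than Krt8 did. Tbx18, a factor of the anterior somite compartment, nevertheless gave -1.31, -0.82 and -0.93, and Uncx, a factor of the posterior compartment, gave -0.63, -0.80 and -0.92. Aldh1a2, the retinoic acid synthesis enzyme, gave -1.06, -0.79 and -0.60. These 3 genes had 1 sign in all 3 pairs, unlike Krt8 and Epcam; none passed the adjusted threshold. The list's summed signal was 16.18 to 16.28 in WT and 15.92 to 16.37 in Paraxis-/-.

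**Figure D4:**
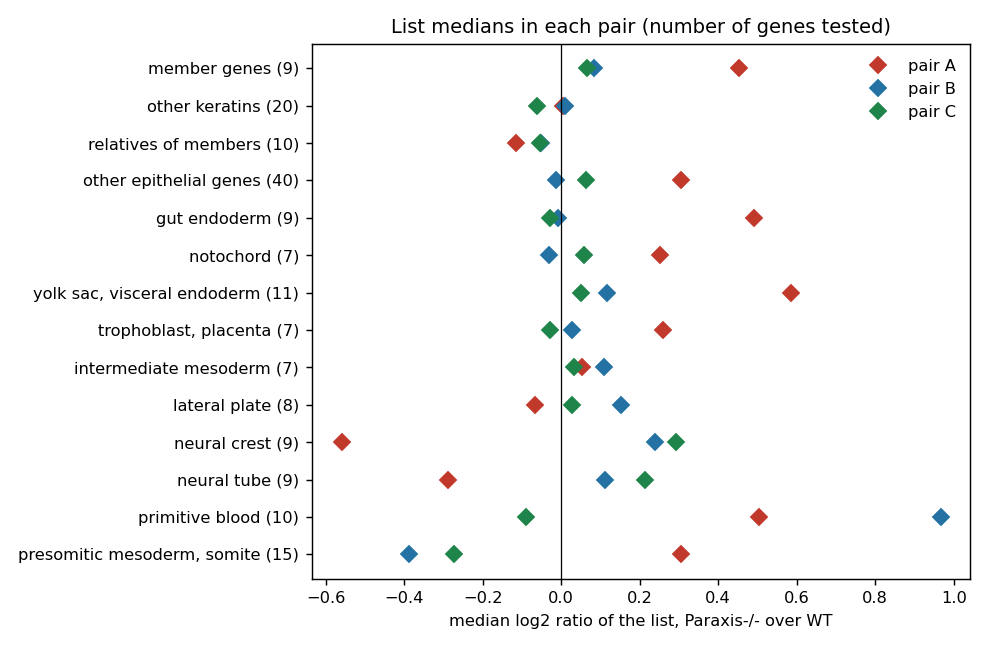
Median log2 ratio of Paraxis-/- over WT (horizontal axis) of each gene list (vertical axis, number of genes tested in brackets) in pairs A, B and C. Pair A stands apart from B and C on the higher side for the 9 named genes (0.45 beside 0.08 and 0.07), other epithelial genes, gut endoderm and yolk sac. Trophoblast (0.26 beside 0.03 and -0.03), notochord (0.25 beside -0.03 and 0.06) and the presomitic mesoderm and somite list (0.31 beside -0.39 and -0.27) do so too. Neural crest and neural tube stand apart on the lower side.

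The start of Krt18 is printed because this gene, with Krt8, had the highest ratios of the 9 in pair A, and because it held the one AP-2 match among the promoters searched. The RefSeq table (GRCm38.p6) gave 8 promoters for 7 of the 10 genes. The 250 bases before each start were searched on both strands for the AP-2 motif GCCNNNGGC, the grainyhead motif AACCGGTT, the TATA box TATAAA and the GC box GGGCGG. Capitals mark the AP-2 match, which lies 83 bases before the start.
Krt18, chr15:102027966-102028215, plus strand: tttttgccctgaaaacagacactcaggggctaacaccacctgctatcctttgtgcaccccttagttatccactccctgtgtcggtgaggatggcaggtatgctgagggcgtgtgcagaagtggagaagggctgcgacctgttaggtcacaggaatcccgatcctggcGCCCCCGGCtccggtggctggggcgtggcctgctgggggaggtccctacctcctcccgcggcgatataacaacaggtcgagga
The AP-2 motif was in 1 of the 8 promoters and in 13.7% of all 32851 promoters of this length. The grainyhead motif was in none of the 8 and in 0.116% of all, the TATA box in none and in 12.4%, and the GC box in 4 of 8 and in 32.7%. The Krt8 promoter held none of the 4 motifs. A match describes letters in this window and is no measure of binding.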

How the data were processed

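The 6 two-colour arrays were analysed from their scanner files. Per the file headers, intensity came from Agilent Feature Extraction 10.7.3.1 (slide 1) and 10.5.1.1 (slide 2); the submitters' processing notes name 8.5.1.1. The authors' deposited matrix of log10 ratios (Cy5 over Cy3) differed from the scanner files' log10 ratio by at most 5e-11 and served as an alternative. Per the labels' protocols, 250 ng of RNA with an integrity number of at least 7.9 was labelled.

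Median spot and local background intensities were corrected with normexp (offset 50) and normalised by loess within each array (limma 3.58.1 and data.table version 1.17.8 under R 4.3.3). The 1639 control spots had weight 0, and 438 to 620 outlier spots were dropped on each array. Ratios were turned to Paraxis-/- over WT with the dyes in the labels, and both arrays of a pair were averaged, so n is 3 pairs. Signals of a pool are log2 values after Aquantile normalisation between arrays. Titles gave the pairs, since they and the descriptions differ for 2 arrays. Deviations of arrays of 1 pair correlated at 0.42 to 0.64 across genes, and those of other combinations at -0.78 to -0.09. Deviations were taken from the mean of the arrays of a dye orientation, which itself pushes correlations between those arrays below 0. Without this centring the ranges overlapped, at 0.28 to 0.56 within a pair and -0.12 to 0.35 otherwise. The labels call the pools biological replicates.

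Probes well above background in at least 4 of 6 measurements of either genotype were kept (28639 of 41174), and the brightest stood for its gene. Names came from the files, updated through RefSeq by accession (26690 probes), symbol (5189) or synonym (952); 8343 kept the name in the file. Genes with at least 2 pairs were tested (73 had fewer than 3) with lmFit and eBayes, two-sided, and Benjamini-Hochberg adjustment over all 19354 genes, threshold 0.05. The dye-swap fit used the 19281 genes measured on all 6 arrays, with 1 coefficient per pair and 1 for the dye. The tests were checked on simulated data.

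The genes and lists were chosen with earlier results of these data known. The rule named all 10 genes, Tcf15 and up to 4 genes of each further list by smallest p; not all are printed, and which of them are printed was decided with their values in view. The arrays' number limits the precision. A summed signal is the log2 of the sum of a list's signals.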

Additional observations from a re-analysis of the deposited data

How the results depend on the processing

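The 9 genes were refitted under 18 alternatives of background correction, normalisation, probe filter, probe choice, pairing, slide, moderation and pairs left out. In 157 of 162 values the direction and the side of the threshold stayed, and no value passed it (limma adjusted p 0.105 to 0.9996). These values are not 162 separate checks. Leaving out pair A and keeping slide 2 alone are the same fit, so the turns of Krt14 and Krt19 there count 2 times each. Agilent processed signals and the deposited ratios gave the same log2 ratios. The settings of replicate block, prior and pairing left these genes' log2 ratios unchanged and could move only p. Without pair A, which leaves slide 2 alone, Krt14 turned to 0.085 and Krt19 to -0.026, and without pair B Tfap2a turned to -0.020. With pairs left out in turn, Krt14 ranged from -0.16 to 0.085, Krt19 from -0.026 to 0.35 and Tfap2a from -0.020 to 0.059. Leaving out pair A moved Krt8 from 0.39 to 0.01, Epcam from 0.32 to 0.01, Krt18 from 0.42 to 0.11 and Grhl2 from 0.15 to 0.00. The median of the 9 genes fell from 0.15 to 0.03 and that of the other epithelial genes from 0.13 to 0.04 without pair A. Within pair A, Krt8 lay between 0.97 and 1.32 and Epcam between 0.77 and 1.03 over 5 other settings of background and normalisation. The genes past the threshold numbered 4, and 18 with scaling between arrays, 66 with the pair as a random replicate block over 6 arrays, 91 with no block, 76 with slide as a fixed block and 2 within slide 2. Leaving out 1 pair at a time gave 0 (pair B) to 2 (pair A or C). For the count of 0, without pair B, the number at an unadjusted p under 0.05 was 732. The median of the relatives of the transcription factors moved from -0.03 to -0.072 with plain background subtraction and to -0.074 within slide 2, and ranged from -0.074 to -0.063 as pairs were left out; the cause was not tested. Signal near background limits the dimmer Trp63, Grhl2 and Tfap2a probes.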
